A study of Mus musculus with 2 samples.

Results

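The PDGF ligands and receptors are 6 of the 32285 genes counted in nuclei of interscapular brown adipose tissue (BAT), and were taken by symbol: the ligand genes Pdgfa, Pdgfb, Pdgfc and Pdgfd and the receptor genes Pdgfra and Pdgfrb. All 6 were found in both libraries and none was removed by a filter on low values. Nuclei of 8-week-old mice were measured by snRNA-seq in 1 WT library (Srsf1 flox/flox) and 1 KO library (Adipoq-Cre; Srsf1 flox/flox). Both groups carry the floxed alleles, and the Cre is driven by the promoter of Adipoq, a gene of mature adipocytes. The study asked which cell populations of BAT differ between WT and KO mice. How many mice went into each library is not given in the sources used here. With no replicate of either genotype, no test or p-value is given and a genotype cannot be told apart from its library. The 95% intervals cover counting error only.

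PDGFs are secreted dimers that bind receptor tyrosine kinases on the surface of mesenchymal cells. PDGF-A and PDGF-C act mainly through PDGFRα, the receptor that marks adipocyte precursors, while PDGF-B and PDGF-D act mainly through PDGFRβ, the receptor of pericytes and vascular smooth muscle. PDGF-B from endothelium recruits pericytes to growing vessels, and PDGF-C and PDGF-D are secreted as latent proteins that proteases must cut before they bind.

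The files held 12846 WT and 11495 KO barcodes with medians of 3439.5 and 4363 UMIs (unique molecular identifiers, 1 for each captured RNA molecule). 52 barcode sequences occurred in both libraries. The median mitochondrial share was 1.10% in WT and 0.0491% in KO. Quality limits kept 12771 and 11378 nuclei. Each nucleus was placed in a class by its summed markers, from lists that hold none of the 6 genes, and a class is named "-like" for its list. This gave 320 WT and 1721 KO precursor-like, 266 and 145 mural-like, 2010 and 971 endothelial-like, 5876 and 2413 adipocyte-like and 502 and 3343 immune-like nuclei. Among the 10 leading genes of each class in each library, 0 to 6 were markers of that class (0 in KO precursor-like) and 0 were markers of another class. No class was given to 3733 WT and 2759 KO nuclei, and the Schwann- and muscle-like classes, with 35 and 29 WT nuclei, are not described. Every order of levels given is an order among the 5 described classes. Srsf1 itself was at 178 UMIs per 1000000 UMIs of the class (CPM) in WT and 61.6 CPM in KO adipocyte-like nuclei, a log2 ratio of -1.54 (-1.62 to -1.45). In the other 4 classes its log2 ratio lay between -0.73 and -0.41, below 0 as well.

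The genes lie apart in the genome (GRCm38, annotation of GENCODE release M21). Pdgfa is at chr5:138976014-138997370 on the minus strand, Pdgfb at chr15:79995874-80014977 on the minus strand, Pdgfc at chr3:81036416-81214040, Pdgfd at chr9:6168584-6378850 and Pdgfra at chr5:75152292-75198215 on the plus strand. Genes on the opposite strand overlap 5 of them, with few UMIs in the kept nuclei: 6330403L08Rik at Pdgfa (186 in WT and 227 in KO), Gm41361 at Pdgfb (57 and 232), Gm16000 at Pdgfc (297 and 304), Ddi1 at Pdgfd (430 and 29) and Gm42802 at Pdgfra (0 and 1). Whether reads were counted by strand is not given in the sources used here, so reads of such partners cannot be told apart from those of the PDGF gene.

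The 250 bases before the start of Pdgfc and of Pdgfd are shown because these ligands had opposite KO to WT ratios in adipocyte-like nuclei (given with the ligands). The bases come from the RefSeq promoter table (GRCm38.p6), at chr3:81036166-81036415 and chr9:6168236-6168485, both on the plus strand and read 5′ to 3′. Capitals mark a CArG box, the motif of serum response factor, in Pdgfc and the letters TATAAA in Pdgfd.
Pdgfc: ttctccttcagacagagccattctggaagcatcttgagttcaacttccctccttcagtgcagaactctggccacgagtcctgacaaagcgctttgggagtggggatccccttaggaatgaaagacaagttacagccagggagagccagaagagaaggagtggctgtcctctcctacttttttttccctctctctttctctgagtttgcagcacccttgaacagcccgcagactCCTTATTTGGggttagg
Pdgfd: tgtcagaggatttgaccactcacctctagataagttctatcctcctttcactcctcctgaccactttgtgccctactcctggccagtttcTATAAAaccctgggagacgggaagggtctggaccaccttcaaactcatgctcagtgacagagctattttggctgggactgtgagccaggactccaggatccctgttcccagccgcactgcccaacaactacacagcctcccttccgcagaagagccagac
The CArG box begins 17 bases before the Pdgfc start (position -17), and TATAAA begins at position -160 of Pdgfd, counted from the RefSeq start that follows the window and lies before the start of the gene in the annotation above. On either strand, a CArG box occurs in 1.47% and TATAAA in 12.4% of the 32851 promoter windows of this length, and GGGCGG, the GC box, in 32.7%. Neither printed window holds a GC box. The windows of the 2 starts listed for Pdgfa hold 1 and 2 GC boxes, 19 and 28 CpG dinucleotides and 66.4% and 72.4% G and C, against 3 CpG in Pdgfc and 3 in Pdgfd and a median of 6 over all windows. Pdgfra, with 4 CpG, has none of these 3 motifs in its window. The table gave no window for Pdgfb or Pdgfrb. A match of letters does not show that a factor binds there.

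Pdgfra was highest in precursor-like nuclei of both libraries, at levels that differed by less than their counting error. It was at 393 CPM (363 to 424, from 632 UMIs) in WT and 413 CPM (401 to 426, from 4290 UMIs) in KO, a log2 ratio of 0.07 (-0.05 to 0.20). The interval allows a difference from 0.968- to 1.15-fold. In WT this was 25.7-fold (15.2 to 47.2) above the next class, mural-like nuclei with 15.3 CPM, and in KO 22.7-fold (20.5 to 25.2) above adipocyte-like nuclei with 18.2 CPM. The remaining WT classes were at 14.0 CPM in endothelial-like, 13.5 in adipocyte-like and 8.05 in immune-like nuclei, and neighbours in this order differed by less than their counting error down to adipocyte-like nuclei. In KO, immune-like nuclei had 15.5, endothelial-like 12.0 and mural-like 9.32 CPM, the last from 5 UMIs.

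A Pdgfra UMI was found in 68.8% (63.4 to 73.8, exact binomial) of WT and 67.8% (65.5 to 70.0) of KO precursor-like nuclei. Immune-like nuclei, which should lack the receptor, had one in 2.39% of WT and 4.67% of KO nuclei. Median depths were 4252.5 and 4966 UMIs in precursor-like and 4388 and 4303 in immune-like nuclei. With each nucleus thinned to 1000 UMIs, which left out 4 WT and 52 KO precursor-like nuclei, the shares were 26.9% and 28.9% in precursor-like and 0.800% and 0.901% in immune-like nuclei.

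Pdgfrb was highest in mural-like nuclei and second in precursor-like nuclei of both libraries. Mural-like nuclei had 654 CPM (602 to 708, from 598 UMIs) in WT and 704 CPM (635 to 779, from 378 UMIs) in KO, a log2 ratio of 0.11 (-0.08 to 0.30). Precursor-like nuclei had 118 CPM (102 to 136, from 190 UMIs) in WT and 179.7 CPM (172 to 188, from 1866 UMIs) in KO, a log2 ratio of 0.61 (0.39 to 0.83) or 1.52-fold. Whether the 2 ratios differ was not tested, and their order turned round with classes called per Leiden cluster, at 0.53 (0.38 to 0.68) in mural-like and 0.33 (0.11 to 0.55) in precursor-like nuclei. The mural-like level was 5.54-fold above the precursor-like level in WT and 3.92-fold in KO. All other classes lay between 11.4 and 17.1 CPM in both libraries. With classes called per Leiden cluster, Pdgfrb in adipocyte-like nuclei was at 19.0 CPM in WT and 3.07 CPM in KO. Those calls were made within each library, so these levels come from different clusters. Without nuclei over 10000 UMIs, Pdgfrb in immune-like nuclei was at 11.2 CPM in WT and 5.40 CPM in KO.

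By nuclei, 77.4% of WT and 78.6% of KO mural-like nuclei had a Pdgfrb UMI, and 44.7% and 50.7% when thinned to 1000 UMIs, with 0 and 1 nuclei left out. In precursor-like nuclei the shares were 34.1% and 44.7%, and 11.7% and 14.7% when thinned. The median depth of precursor-like nuclei was higher in KO, and its part in the unthinned difference was not tested. The background in immune-like nuclei was 4.38% and 3.32%, and 1.20% and 0.811% when thinned. Mural-like nuclei had median depths of 3126 and 3011 UMIs. Both receptors were seen in 25.9% of WT and 35.4% of KO precursor-like nuclei at full depth, but in 4.75% and 4.79%, or 15 and 80 nuclei, when thinned. In mural-like nuclei both were seen in only 6 WT and 4 KO nuclei.

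**Figure D1:**
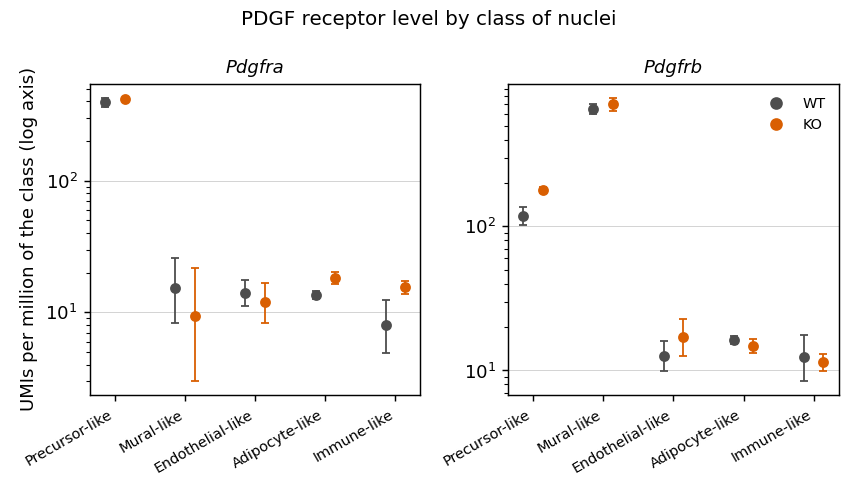
Level of each receptor gene (CPM, UMIs per 1000000 UMIs of the class, log axis) in the 5 classes of nuclei, WT in grey and KO in orange, 1 library each. Bars are exact 95% Poisson intervals for counting error. Pdgfra stands out in precursor-like nuclei (393 and 413 CPM) and Pdgfrb in mural-like (654 and 704 CPM) and precursor-like nuclei (118 and 179.7 CPM).

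Pdgfra and Pdgfrb behaved differently in the 2 large subsets of precursors, which were called by further markers: ASC-like nuclei (Dpp4, Pi16 and 4 others; 78 WT and 631 KO) and PreA-like nuclei (Cyp7b1, Col15a1 and 5 others; 169 and 830). Pdgfrb was low in ASC-like nuclei, at 31.6 CPM in WT and 31.6 CPM in KO, and high in PreA-like nuclei, at 163 CPM in WT and 277 CPM in KO. PreA-like nuclei thus had 5.17-fold more Pdgfrb than ASC-like nuclei in WT and 8.75-fold more in KO. The KO to WT log2 ratio of Pdgfrb was 0.76 (0.52 to 1.01) in PreA-like nuclei, whereas the 12 WT UMIs of ASC-like nuclei left its interval there wide. Pdgfra was at 347 CPM in WT and 225 CPM in KO ASC-like nuclei (log2 ratio -0.62, -0.89 to -0.35), and at 401 CPM in WT and 541 CPM in KO PreA-like nuclei (0.43, 0.28 to 0.59). The near-equal Pdgfra level of all precursor-like nuclei therefore contained a lower KO level in one subset and a higher one in the other. Areg-like nuclei numbered only 12 in WT and 47 in KO and are described for Pdgfd alone, and 61 and 213 precursor-like nuclei fell in no subset.

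Within mural-like nuclei, Pdgfrb was mainly a pericyte transcript. Pericyte-like nuclei (Rgs5, Abcc9, Kcnj8 and 4 others; 187 WT and 96 KO) had 851 CPM in WT and 849 CPM in KO, a log2 ratio of -0.002 (-0.21 to 0.21). Smooth muscle-like nuclei (Myh11, Acta2, Tagln and 4 others; 63 WT and 31 KO) had 172 CPM from 43 UMIs in WT and 290.2 CPM from 37 UMIs in KO. The pericyte-like level was 4.95-fold above the smooth muscle-like level in WT and 2.93-fold in KO.

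**Figure D2:**
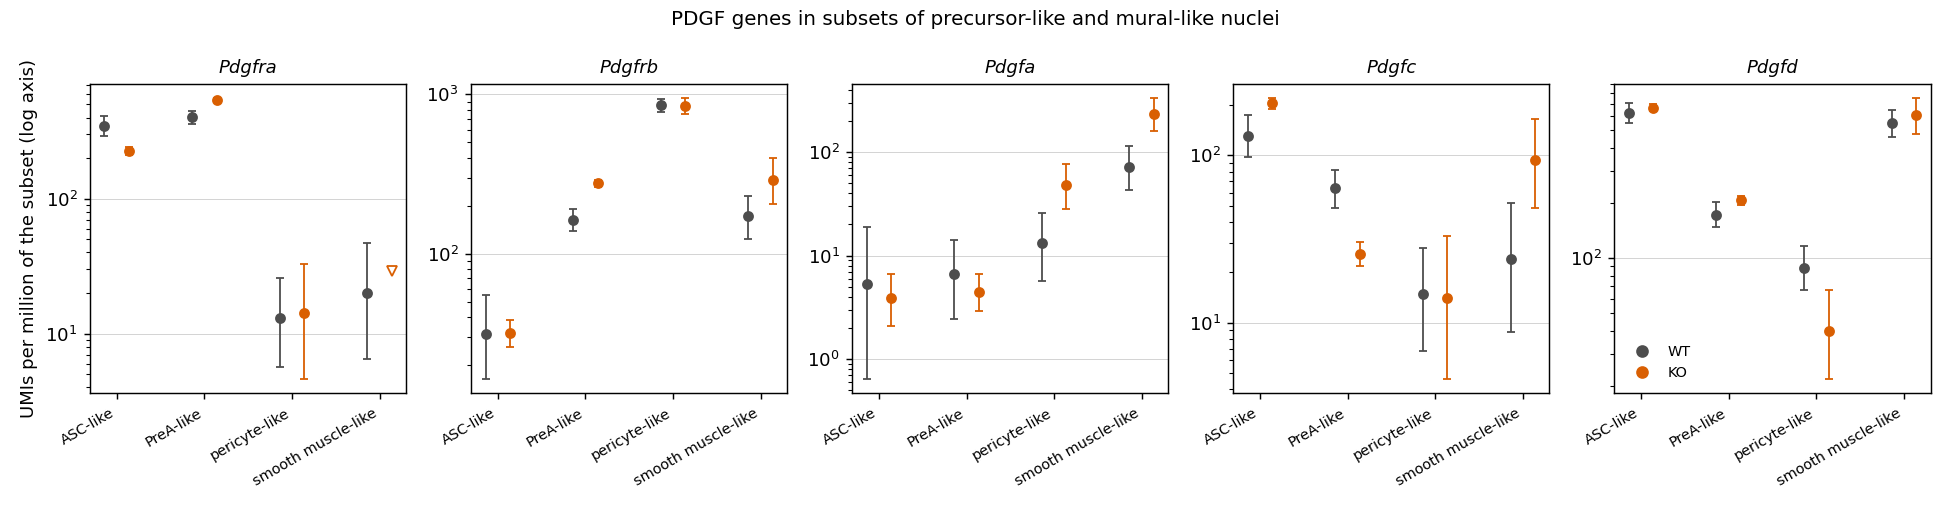
Level of both receptors and of 3 ligands (CPM, UMIs per 1000000 UMIs of the subset, log axis) in 2 subsets of precursor-like and 2 of mural-like nuclei, WT in grey and KO in orange. Bars are exact 95% Poisson intervals, and the open triangle marks the upper bound where 0 UMIs were counted. Pdgfrb is low in ASC-like nuclei (31.6 CPM in both libraries), and Pdgfd and Pdgfc are higher in ASC-like than in PreA-like nuclei.

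Among the ligands, Pdgfa was the lowest-counted, with 278 WT and 978 KO UMIs in all kept nuclei, and among the 5 classes was highest in mural-like nuclei. There it was at 29.5 CPM (19.4 to 42.9, from 27 UMIs) in WT and 96.9 CPM (72.4 to 127, from 52 UMIs) in KO, a log2 ratio of 1.72 (1.02 to 2.44). Within this class, smooth muscle-like nuclei had 72.0 CPM in WT and 235 CPM in KO, 5.48-fold and 4.89-fold above pericyte-like nuclei with 13.1 and 48.1 CPM. A Pdgfa UMI was in 8.65% of WT and 20.7% of KO mural-like nuclei.

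In the other 4 described classes Pdgfa was at or below 14.2 CPM in both libraries. Schwann-like nuclei, outside these classes, had 68.1 CPM from 8 UMIs in WT and 296.6 CPM from 5 UMIs in KO. Adipocyte-like nuclei had 2.59 CPM in WT (144 UMIs) and 12.6 CPM in KO (271 UMIs), a log2 ratio of 2.29 (1.99 to 2.59) or 4.87-fold. Endothelial-like nuclei had 2.49 CPM from 14 UMIs in WT and 12.4 CPM from 34 UMIs in KO, and immune-like nuclei 4.03 CPM from 10 UMIs and 14.2 CPM from 266 UMIs. Neighbours in the order of these 3 KO levels, and of all 4 WT levels outside mural-like nuclei, differed by less than their counting error. Precursor-like nuclei were at 5.59 CPM in WT and 4.43 CPM in KO, the lowest KO class. A Pdgfa UMI was in 2.16% of WT and 8.99% of KO adipocyte-like nuclei, and in 0.228% and 1.63% when thinned to 1000 UMIs.

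Pdgfb, the ligand that pericytes need, was at its highest level in endothelial-like nuclei of both libraries. Endothelial-like nuclei had 296 CPM (282 to 311, from 1669 UMIs) in WT and 237 CPM (219 to 256, from 652 UMIs) in KO, a log2 ratio of -0.32 (-0.46 to -0.19). This was 12.1-fold above the next WT class and 5.03-fold above the next KO class, immune-like nuclei in both. A UMI was in 48.5% of WT and 40.0% of KO endothelial-like nuclei, at median depths of 2357.5 and 2263 UMIs, against 5.31% and 3.02% of precursor-like nuclei. Capillary-like nuclei (1623 WT and 709 KO) had 318 CPM in WT and 261 CPM in KO.

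In immune-like nuclei the ratio of Pdgfb went the other way, with 24.6 CPM (18.8 to 31.5) in WT and 47.1 CPM (44.0 to 50.3) in KO, a log2 ratio of 0.94 (0.56 to 1.34). Adipocyte-like nuclei had 22.2 CPM in WT and 9.45 CPM in KO (log2 ratio -1.23), and with classes called per Leiden cluster 31.3 and 3.00 CPM (-3.38). The clusters were called within each library, and the KO adipocyte-like class was then a cluster of 2059 KO and 7 WT nuclei. The Leiden values of this class thus compare different clusters. Mural- and precursor-like nuclei had between 6.45 and 13.1 CPM. The immune-like KO nuclei held a second macrophage group, for which 2 marker lists were chosen after the values had been seen. Lipid-associated-type macrophages (Gpnmb, Trem2, Spp1 and 3 others) numbered 23 in WT and 493 in KO, and resident-type macrophages (Cd163, Lyve1, F13a1 and 3 others) 338 and 1823. In KO the former had 62.2 CPM of Pdgfb and the latter 34.8 CPM, a difference of 1.79-fold, and 35.8 against 7.90 CPM of Pdgfa, 4.53-fold. The 1027 KO immune-like nuclei that fell in neither group had 62.6 CPM of Pdgfb, as high as the former, and 13.1 CPM of Pdgfa.

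Pdgfc was highest in immune-like nuclei, with 510.4 CPM (483 to 539, from 1268 UMIs) in WT and 275 CPM (268 to 283, from 5145 UMIs) in KO, a log2 ratio of -0.89 (-0.98 to -0.80). The lower KO level was found in resident-type macrophages too, with 629.8 CPM in WT and 368 CPM in KO (log2 ratio -0.77, -0.87 to -0.68). Lipid-associated-type macrophages had 2.24-fold less Pdgfc than resident-type ones in KO, at 164 CPM. The KO immune-like nuclei in neither group were at a similar 156 CPM. The 63 KO T and NK lymphocyte-like nuclei had 6 Pdgfc UMIs.

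In adipocyte-like nuclei Pdgfc was higher in KO, at 59.5 CPM (57.5 to 61.6, from 3313 UMIs) in WT and 141 CPM (136 to 146, from 3024 UMIs) in KO, a log2 ratio of 1.24 (1.17 to 1.31) or 2.36-fold. Endothelial-like nuclei had 17.8 CPM in WT and 30.5 CPM in KO (log2 ratio 0.78, 0.35 to 1.22). Precursor-like nuclei had 82.6 CPM in WT and 87.5 CPM in KO (0.08, -0.18 to 0.36). Without nuclei over 10000 UMIs the levels were 57.4 and 91.0 CPM (0.67, 0.32 to 1.03). The interval also left out equality with fixed limits on genes (0.40, 0.10 to 0.72) and with classes called per Leiden cluster (0.37, 0.08 to 0.68). The subsets again had opposite ratios. ASC-like nuclei had 131 CPM in WT and 205 CPM in KO (0.64, 0.23 to 1.09), and PreA-like nuclei 63.5 CPM in WT and 25.9 CPM in KO (-1.30, -1.74 to -0.83). In KO the ASC-like level was 7.92-fold above the PreA-like level, and in WT 2.07-fold.

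Pdgfd had the most UMIs of the 4 ligands, 23940 in WT and 15091 in KO, and was highest in endothelial-like nuclei. These had 895 CPM (871 to 920) in WT and 1223 CPM (1182 to 1265) in KO, a log2 ratio of 0.45 (0.39 to 0.51). Precursor-like nuclei came second, with 298 CPM (272 to 326) in WT and 395 CPM (383 to 408) in KO, a log2 ratio of 0.41 (0.27 to 0.55). Adipocyte-like nuclei had 239 CPM (235 to 243) in WT and 117 CPM (112 to 122) in KO, a log2 ratio of -1.03 (-1.09 to -0.97). Immune-like nuclei, the lowest class, had 89.4 CPM in WT and 45.2 CPM in KO (-0.98, -1.20 to -0.76), and the ratio was -2.19 with classes called per Leiden cluster and -1.56 without the top doublet scores. Pdgfd was thus higher in KO in 2 classes and lower in 2, while mural-like nuclei, with 213 CPM in WT and 175 CPM in KO (-0.28, -0.65 to 0.08), had an interval that includes equality. Without nuclei over 10000 UMIs the mural-like ratio was -0.61 (-1.05 to -0.19).

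Pdgfd differed between the subsets of precursor-like and of mural-like nuclei. ASC-like nuclei had 623 CPM in WT and 666 CPM in KO, 3.60-fold and 3.22-fold above PreA-like nuclei with 173 and 207 CPM. The KO to WT log2 ratio was 0.10 (-0.10 to 0.30) in ASC-like and 0.26 (0.02 to 0.51) in PreA-like nuclei. Areg-like nuclei, only 12 in WT and 47 in KO, had 92.6 CPM from 4 UMIs in WT. In KO they had 787 CPM (677 to 909, from 184 UMIs), a log2 ratio of 3.09 (1.71 to 4.98). Smooth muscle-like nuclei had 548 CPM in WT and 604 CPM in KO, against 88.7 CPM in WT and 39.6 CPM in KO pericyte-like nuclei, a difference of 6.18-fold in WT and 15.2-fold in KO. Arterial-like nuclei, only 22 in WT and 26 in KO, had 1816 CPM in WT and 2774 CPM in KO, 2.16-fold and 2.58-fold above capillary-like nuclei with 842 and 1077 CPM.

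**Figure D3:**
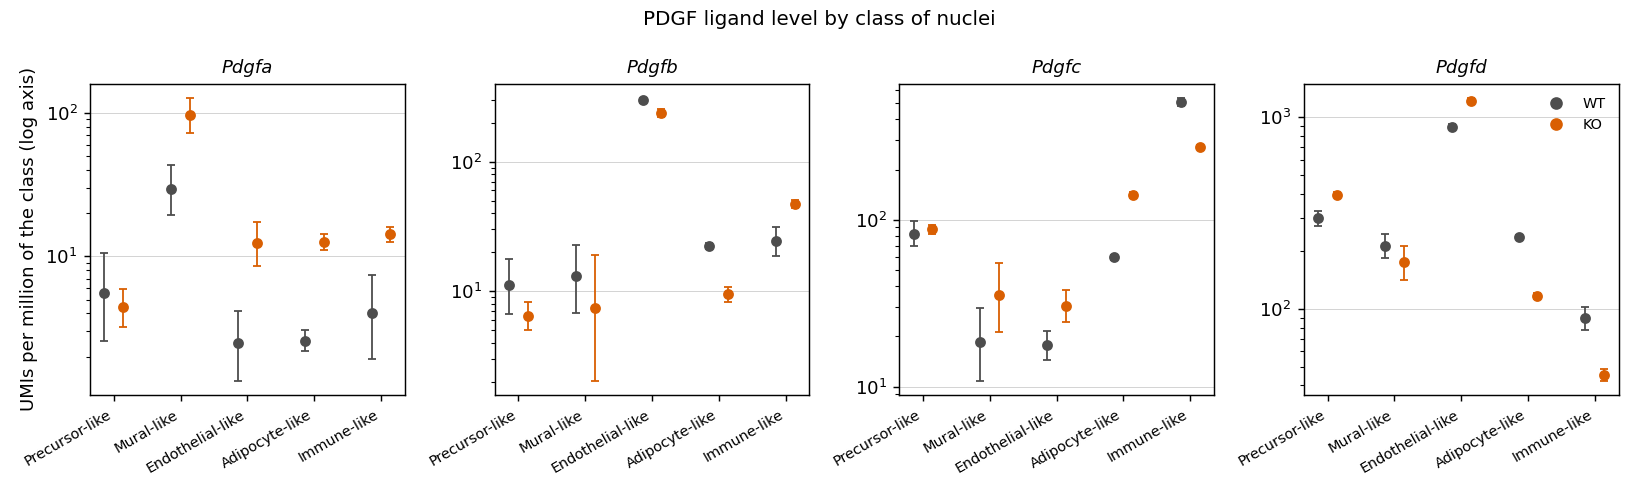
Level of each ligand gene (CPM, UMIs per 1000000 UMIs of the class, log axis) in the 5 classes of nuclei, WT in grey and KO in orange, 1 library each, with exact 95% Poisson intervals. Pdgfa is highest in mural-like, Pdgfb and Pdgfd in endothelial-like and Pdgfc in immune-like nuclei of both libraries.

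Set side by side, the 6 genes were read against all genes of the same class. Over all genes with at least 100 UMIs in a class, 4.15% of 9507 genes were at least 2-fold higher in KO and 7.60% at least 2-fold lower in precursor-like nuclei, 3.60% and 7.00% of 2941 in mural-like, 2.76% and 9.44% of 8487 in endothelial-like, 18.1% and 16.3% of 14486 in adipocyte-like, and 4.59% and 9.20% of 10996 in immune-like nuclei. In adipocyte-like nuclei all 6 members had 100 UMIs, and Pdgfa and Pdgfc were past 2-fold higher and Pdgfb and Pdgfd past 2-fold lower in KO. In immune-like nuclei Pdgfa was past 2-fold higher, on 10 WT UMIs. In the other 3 classes no member with 100 UMIs was past 2-fold in either direction, while Pdgfa in mural-like (79 UMIs over both libraries, 3.28-fold) and endothelial-like nuclei (48 UMIs, 4.97-fold) was past 2-fold higher on fewer UMIs than that minimum. The median log2 ratio of all genes was 0.02 in precursor-like, 0.12 in mural-like, 0.02 in endothelial-like, 0.09 in adipocyte-like and -0.02 in immune-like nuclei.

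**Figure D4:**
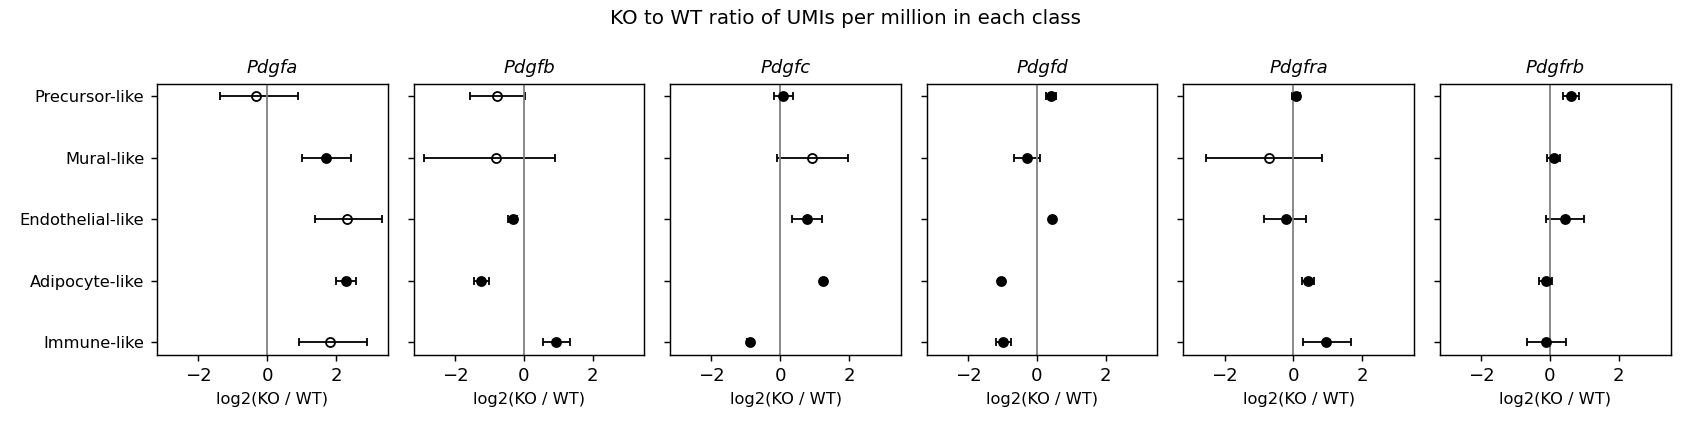
KO to WT log2 ratio of the CPM of each PDGF gene in each class, with the exact 95% interval from the UMI counts. Filled points rest on at least 20 UMIs in each library and open points on fewer. Pdgfb, Pdgfc and Pdgfd each have intervals above 0 in one class and below 0 in another.

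Where the UMIs of a gene lay also depends on how many nuclei of each class were captured. Precursor-like nuclei held 30.8% of the Pdgfra UMIs in WT and 62.1% in KO. Adipocyte-like nuclei, with 36.7% in WT and 5.66% in KO, held the largest WT share although their level was only 13.5 CPM. Much of that share was in deep nuclei: without nuclei over 10000 UMIs, precursor-like nuclei held 52.9% and 81.6% and adipocyte-like nuclei 14.2% and 2.11%. Of the Pdgfrb UMIs, mural-like nuclei held 24.4% in WT and 9.25% in KO, precursor-like nuclei 7.76% and 45.7%, and adipocyte-like nuclei 36.9% and 7.83%. Without nuclei over 10000 UMIs, the adipocyte-like share of Pdgfrb was 15.9% and 2.62%.

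The ligand UMIs likewise lay in other classes in KO than in WT. For Pdgfb, endothelial-like nuclei held 40.3% in WT and 25.1% in KO, adipocyte-like nuclei 29.8% and 7.81%, and immune-like nuclei 1.47% and 33.9%. The order of the WT sources of Pdgfb depended on the processing. Adipocyte-like nuclei held 38.3% and endothelial-like 35.5% with no filter on nuclei, and 46.0% and 42.9% by Leiden cluster. Without nuclei over 10000 UMIs they held 12.6% and 60.8%. For Pdgfc, adipocyte-like nuclei held 54.8% and 25.0% and immune-like nuclei 21.0% and 42.6%. For Pdgfd, adipocyte-like nuclei held 55.5% in WT and 16.6% in KO, precursor-like nuclei 2.01% and 27.2%, and endothelial-like nuclei a similar 21.1% and 22.3%. Pdgfa UMIs lay in adipocyte-like nuclei for 51.8% in WT and 27.7% in KO, and in immune-like nuclei for 3.60% and 27.2%. Nuclei with no class held between 19.5% and 31.0% of each gene.

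**Figure D5:**
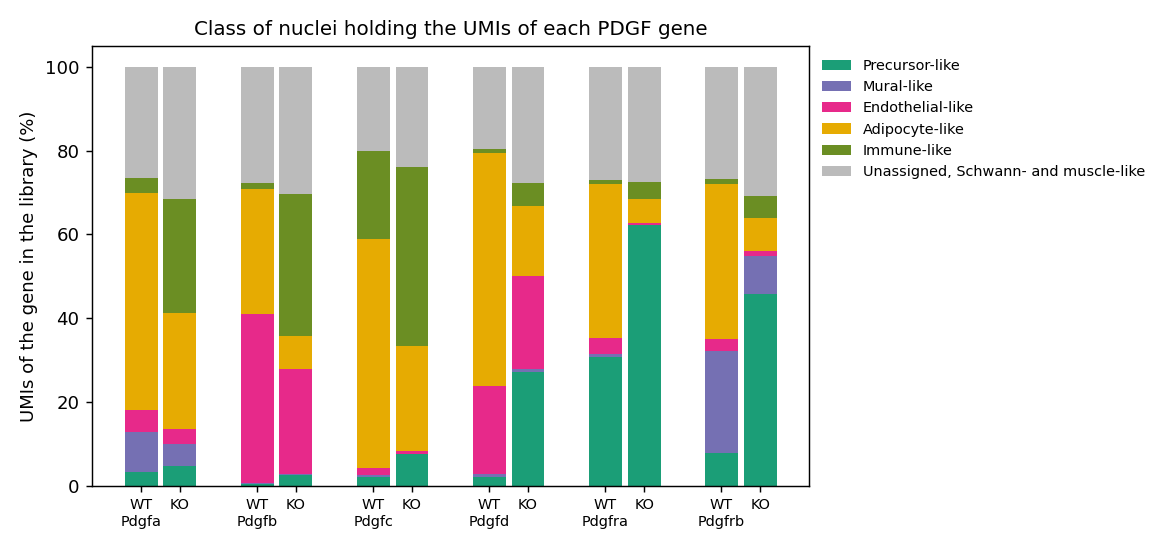
Share of the UMIs of each PDGF gene that lay in each class of nuclei, in percent of the gene's UMIs in that library (WT left, KO right in each pair). Immune-like nuclei hold 1.47% of Pdgfb UMIs in WT and 33.9% in KO, and precursor-like nuclei 30.8% of Pdgfra UMIs in WT and 62.1% in KO.

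Over all kept nuclei, Pdgfra was at 25.8 CPM in WT and 94.3 CPM in KO, a log2 ratio of 1.87. Giving every class its WT level and the KO share of UMIs yielded 73.6 CPM, a log2 ratio of 1.51, which is the larger part of the difference between the libraries. The same step gave 0.49 of 0.85 for Pdgfrb and 1.28 against 1.12 for Pdgfc. For Pdgfa it gave only 0.27 of 1.93, for Pdgfb -0.10 of -0.56, and for Pdgfd -0.18 of -0.55. This step counts nuclei with no class as a class of their own.

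The other genes of the pathway were followed as 6 lists with 66 genes in all. Of those with 100 UMIs, 1 of 55 was at least 2-fold higher and 4 lower in precursor-like nuclei, 5 of 28 higher and 0 lower in mural-like, 1 of 51 higher and 2 lower in endothelial-like, 14 of 60 higher and 6 lower in adipocyte-like, and 2 of 56 higher and 5 lower in immune-like nuclei. Over all genes with 100 UMIs, 4.15% were higher and 7.60% lower in precursor-like nuclei, and 3.60% and 7.00% in mural-like nuclei. The shares were 2.76% and 9.44% in endothelial-like, 18.1% and 16.3% in adipocyte-like, and 4.59% and 9.20% in immune-like nuclei. The median log2 ratio over the lists was 0.08, 0.26, 0.12, 0.22 and 0.06 in these classes.

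Early response genes, which growth factors induce within minutes, were mostly lower in KO precursor-like nuclei. Of 4 tested there, Fos (45.3 CPM in WT and 10.0 CPM in KO, log2 ratio -2.18), Junb (41.0 and 15.98 CPM, -1.36) and Jun (54.0 and 24.6 CPM, -1.13; named after its value had been seen) were at least 2-fold lower. Of all genes of that class, 7.60% were. In endothelial-like nuclei, where both receptors were low, 5 were tested with a median log2 ratio of -0.67. Of these, Ier3 (27.4 and 5.45 CPM, -2.33) was past 2-fold lower and Junb was at -0.82 (-1.39 to -0.29). Among all genes of endothelial-like nuclei, 9.44% were past 2-fold lower. None of the 10 was tested in mural-like nuclei. Whether PDGF signalling had a part in these ratios was not tested. Fos, Jun and Ier3 were also past 2-fold lower in immune-like nuclei, a class outside the rule for named genes. These were 3 of 8 tested there, against 9.20% of all genes. In adipocyte-like nuclei 8 were tested, of which Egr1 (7.98 and 42.4 CPM) and Myc (2.71 and 5.96 CPM) were higher and Jun and Ier3 lower. Among all genes of that class, 18.1% were past 2-fold higher and 16.3% lower.

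The adapters and enzymes that bind the activated receptors were mostly closer to equality in precursor-like nuclei. There 0 of 20 were past 2-fold, against 4.15% of all genes higher and 7.60% lower. The highest ratios were those of Gab1 (152 CPM in WT and 274 CPM in KO, 0.85) and Nck2 (73.9 and 126 CPM, 0.77). Against 3.60% of all genes, 4 of 15 were past 2-fold higher in mural-like nuclei. These were Gab1 (168 and 542 CPM, 1.69), Nck2 (92.9 and 240.4 CPM, 1.37), and Grb2 and Pik3r1 with log2 ratios of 1.16 and 1.02, the last 2 named after their values had been seen. With ratios centred on the median of all genes, 3 of 15 were past 2-fold and Pik3r1 was not. In endothelial-like nuclei, where both receptors were low, 0 of 19 were past 2-fold, against 2.76% of all genes higher and 9.44% lower. Grb2 was at 0.99 (0.83 to 1.16) and Nck2 at 0.69 (0.53 to 0.85) there, and Pik3r1 at -0.17 (-0.33 to -0.01). In adipocyte-like nuclei 4 of 20 were past 2-fold higher and 1 lower, against 18.1% and 16.3% of all genes. Src (2.32 and 9.59 CPM, 2.05) and Nck2 (26.9 and 73.2 CPM, 1.44) were the highest there, and Pik3r1, the regulatory subunit of PI3-kinase, was the lowest (598 and 286 CPM, -1.06).

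Among the negative regulators, Ptprj, a phosphatase that acts on PDGFRβ, was higher in KO in all 4 classes in which genes were named. It was at 335 CPM in WT and 532 CPM in KO precursor-like nuclei (log2 ratio 0.67), 54.6 and 145 CPM in mural-like (1.41), 144 and 445 CPM in endothelial-like (1.63) and 49.6 and 207 CPM in adipocyte-like nuclei (2.06). Dusp6, a phosphatase of ERK, was past 2-fold lower in precursor-like nuclei, at 17.4 CPM from 28 UMIs in WT and 6.93 CPM from 72 UMIs in KO. Spry4, an inhibitor of receptor signalling, was past 2-fold lower in endothelial-like nuclei, at 31.4 and 13.8 CPM.

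Among the enzymes that cut the ligands, Plau, which encodes the protease that cuts latent PDGF-D, was at 2.03 and 4.70 CPM in adipocyte-like nuclei (1.21). The proprotein convertases Pcsk5 (319 and 94.0 CPM, -1.76) and Pcsk6 (330.0 and 125 CPM, -1.40) were past 2-fold lower there. Among co-receptors in adipocyte-like nuclei, Lrp1, which binds PDGFRβ, was at 96.7 and 389 CPM (2.01) and Nrp1 at 1086 and 363 CPM (-1.58). Of the related receptors and ligands, Csf1, the macrophage growth factor, had the largest ratio of the 66 genes in this class, at 10.5 CPM in WT and 116 CPM in KO (3.47). In mural-like nuclei Il34, the other ligand of the same receptor, was at 402 and 803 CPM (1.00), just under 2-fold.

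The genes whose levels over the 5 classes of both libraries were most like those of each member were named as a description (Pearson's r of log2(CPM + 1) over 10 class sums, 15157 genes compared). They were Tbx18 and Agtr1a for Pdgfrb (r = 0.997 and 0.994), Naaladl2, Smoc2 and Fam171b for Pdgfra (0.992 to 0.989), Yes1, Plcg1 and Ephb4 for Pdgfd (0.969 to 0.961), Abcc1, Alg8 and Aagab for Pdgfc (0.975 to 0.969), Prag1, Gm17745 and Arap3 for Pdgfb (0.974 to 0.967) and Uba2, Prdm11 and Orc6 for Pdgfa (0.952 to 0.923). The 10 points share libraries and classes, and with so many genes compared high values are common. Among the members themselves the highest r was 0.63, between Pdgfa and Pdgfrb, and the lowest -0.73, between Pdgfc and Pdgfd.

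Adipocyte markers were found in nuclei of the other classes at a higher rate in WT than in KO. The summed adipocyte markers, 11 genes, had a median of 29.9 UMIs per 10000 in WT and 16.1 in KO mural-like nuclei, 39.5 and 20.3 in endothelial-like, 15.8 and 6.49 in precursor-like and 16.2 and 6.65 in immune-like nuclei. Adipocyte-like nuclei themselves had 112 and 93.9. The 12 immune markers went the other way, from a median of 0 in WT to 2.56 UMIs per 10000 in precursor-like, 3.74 in mural-like, 5.49 in endothelial-like and 2.47 in adipocyte-like KO nuclei, against 87.8 and 92.5 in immune-like nuclei. The part of such RNA in the ratios was not tested. With the lowest class level of each library subtracted, 6 of the 12 ratios that were recomputed moved beyond their intervals. Of the class calls, 11 WT and 60 KO precursor-like and 13 and 11 mural-like nuclei lay just inside the limit, and 23 and 95, and 11 and 13, just outside.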

How the data were processed

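The authors demultiplexed barcodes, aligned the reads with STAR to GRCm38 and counted UMIs with Cell Ranger (version 3.1.0 in the methods, 5.0.0 in the file headers and processing notes), and the authors deposited 1 matrix of raw UMI counts for each library, not normalized. Whether intronic reads were counted is not given in the sources used here.

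A nucleus passed with 200 genes or more, at most 10% mitochondrial UMIs, and log UMIs and log genes no more than 3 scaled median absolute deviations from the median of its library. Doublets were scored with Scrublet and kept. A nucleus took the class whose marker rate exceeded the library background by at least 20 UMIs per 10000, with at least 10 UMIs from at least 3 markers and 2 times the excess of the next class. Nuclei just inside or outside that limit were counted. A subset needed 3 UMIs from 2 of its markers and 2 times the next subset. The limits were set after the data had been seen. The members and lists were chosen with earlier results of these data known.

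Counts were summed per class and library and scaled to 1000000 (CPM), with exact Poisson intervals for levels, exact conditional binomial intervals for ratios and exact Clopper-Pearson intervals for shares, at 95%. Reads per UMI are collapsed, and the intervals cover counting error only. For 0 counts the limit shown is the upper bound of the exact Poisson interval. Where the lowest class level was subtracted, the remainder was set to no less than 3 counts. Counts of genes past 2-fold and the named pathway genes needed at least 100 UMIs over both libraries in the class. KO to WT ratios of the members and folds between classes or subsets were not held to this minimum. The named pathway genes were, for each list in precursor-, mural-, endothelial- and adipocyte-like nuclei, the 2 highest and 2 lowest ratios whose interval leaves out equality, of which part is printed, and the 3 most alike genes of each member were taken among genes with at least 200 UMIs. A few genes that these rules name are not reported here. Alternatives covered nuclei filters, doublet scores, classes called per Leiden cluster (2000 variable genes, 30 components, 15 neighbours, resolution 0.5), the margin between classes, the total, centring, averaging and background. Leiden clusters were given a class within each library, so a class can hold different clusters in WT and KO. The ratio and the class calls were run on simulated data as a check of the computation only. Counts were drawn as Poisson, and nuclei from the summed profile of WT nuclei already called. These runs therefore cannot show how well the calls or intervals hold for real nuclei. Tools were scanpy 1.11.5, igraph 0.11.9, scipy 1.17.1 and Python 3.11.15. The bulk measurements of the study were not analysed here.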

Additional observations from a re-analysis of the deposited data

Results flagged for a closer look

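Pdgfb, Pdgfc and Pdgfd had KO to WT ratios with intervals on opposite sides of equality in different classes, a difference that was not tested because each genotype has 1 library. Pdgfb had a log2 ratio of 0.94 in immune-like nuclei, against -0.32 in endothelial-like and -1.23 in adipocyte-like nuclei (-3.38 with classes called per Leiden cluster). Pdgfc had 1.24 in adipocyte-like and 0.78 in endothelial-like nuclei, against -0.89 in immune-like nuclei. Pdgfd had 0.45 in endothelial-like and 0.41 in precursor-like nuclei, against -1.03 in adipocyte-like and -0.98 in immune-like nuclei (-2.19 with classes called per Leiden cluster).

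Nuclei that were given no class, and so enter no comparison between classes, held more of 4 members in KO than in WT. Pdgfa was at 4.99 CPM in WT and 15.7 CPM in KO, Pdgfc at 93.4 and 150.3 CPM, Pdgfra at 42.8 and 98.3 CPM and Pdgfrb at 50.8 and 65.3 CPM. Pdgfb and Pdgfd went the other way. Pdgfb was at 88.1 CPM in WT and 41.1 CPM in KO (log2 ratio -1.10, -1.23 to -0.97). Pdgfd was at 365 and 216 CPM (-0.76, -0.82 to -0.70). These nuclei had median depths of 1118 UMIs in WT and 2150 in KO.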

How the results depend on the processing

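No paired analysis was possible because each genotype has 1 library. The KO to WT ratios of 12 chosen pairs of gene and class were followed through 11 alternatives. Of these, 10 kept their direction under all 11. Pdgfra in precursor-like nuclei did so under 10 and Pdgfrb in mural-like nuclei under 9, and both have main intervals that include equality. Pairs outside the 12 did not all keep their direction. Pdgfra in adipocyte-like nuclei had a main log2 ratio of 0.43 (0.25 to 0.61). It was -1.94 (-2.30 to -1.60) with classes called per Leiden cluster and -0.07 without the top doublet scores. Leiden clusters were called within each library, so the adipocyte-like class held different clusters in WT and KO. For example, a cluster of 910 WT and 115 KO nuclei was adipocyte-like in WT and had no class in KO. Mural-like values rest on the fewest nuclei of the 5 classes in both libraries, which limits their precision. The causes of the shifts were not tested.

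With classes called per Leiden cluster, the log2 ratio was -0.11 for Pdgfra and 0.33 for Pdgfrb in precursor-like, 0.53 for Pdgfrb in mural-like, 1.53 for Pdgfb and -0.46 for Pdgfc in immune-like, 0.36 for Pdgfd in endothelial-like and -1.28 for Pdgfd in adipocyte-like nuclei. With the lowest class level subtracted, it was 6.36 for Pdgfa in adipocyte-like nuclei, where the WT remainder was near 0, 1.60 for Pdgfb and -1.01 for Pdgfc in immune-like, 1.40 for Pdgfc in adipocyte-like, and 0.55 and 0.75 for Pdgfd in endothelial- and precursor-like nuclei. As a mean over nuclei, it was -0.73 for Pdgfc in immune-like and -0.95 for Pdgfd in adipocyte-like nuclei. In adipocyte-like nuclei, Pdgfc was at 1.42 with fixed limits on genes, 1.33 with a stricter margin and 1.15 with centring, and Pdgfd at -0.96 with fixed limits, -1.12 with centring, -1.10 without the top doublet scores and -0.95 without nuclei over 10000 UMIs. The share of nuclei with a UMI, thinned to 1000 UMIs, had a log2 ratio of 0.10 for Pdgfra in precursor-like and 0.18 for Pdgfrb in mural-like nuclei.

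The sources moved more, and for WT Pdgfb the largest became adipocyte-like nuclei with no filter on nuclei and by Leiden cluster. With no filter on nuclei, WT adipocyte-like nuclei held 60.4% of Pdgfa, 60.7% of Pdgfc, 61.8% of Pdgfd, 47.9% of Pdgfra and 46.9% of Pdgfrb UMIs, WT endothelial-like nuclei 35.5% of Pdgfb, KO immune-like nuclei 31.7% of Pdgfb and 39.5% of Pdgfc, and KO precursor-like nuclei 25.2% of Pdgfd, 58.2% of Pdgfra and 42.9% of Pdgfrb. By Leiden cluster these shares were 61.2%, 61.1%, 66.0%, 58.5% and 47.3%, then 42.9%, then 27.3% and 37.8%, and for KO precursor-like Pdgfra and Pdgfrb 63.5% and 47.6%, with KO adipocyte-like Pdgfa at 18.1%. With a stricter margin they were 37.1%, 40.5%, 42.1%, 16.6% and 19.7%, then 31.0%, then 26.7% and 37.3%, then 23.1%, 54.2% and 39.0%, with KO adipocyte-like Pdgfa at 20.4%. Without nuclei over 10000 UMIs, chosen after seeing the data, they were 40.5%, 43.6%, 40.4%, 14.2% and 15.9%, then 60.8%, then 37.5% and 59.3%, then 31.4%, 81.6% and 59.3%. Without the top doublet scores, WT adipocyte-like nuclei held 54.1% of Pdgfd and WT endothelial-like nuclei 46.1% of Pdgfb, KO immune-like nuclei 37.2% of Pdgfb and 48.5% of Pdgfc, and KO precursor-like nuclei 31.7% of Pdgfd, 75.5% of Pdgfra and 55.3% of Pdgfrb. With a minimum of 20 UMIs, 11 pathway genes in precursor-like, 10 in mural-like and 6 in endothelial-like nuclei were past 2-fold, against 5, 5 and 3, while the share of all genes past it rose too, in precursor-like nuclei to 7.17% higher and 13.6% lower.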
